A study of Mus musculus with 36 samples.

Results

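The 7 genes described here receive or modify steroid signals in the bladder: the glucocorticoid receptor Nr3c1, the mineralocorticoid receptor Nr3c2, the estrogen receptor Esr1, the progesterone receptor Pgr, the corticosterone enzymes Hsd11b1 and Hsd11b2, and the receptor chaperone Fkbp4. They were taken by name from the 49585 features of the deposited tables, with earlier results of these data known. All 7 were among the 17867 features kept for testing. Whole bladders of C57BL/6 mice were profiled by total RNA sequencing in 36 libraries. Every group had undergone bilateral adrenalectomy, the removal of both adrenal glands, which are the main source of corticosterone in mice. In 6 groups corticosterone (CORT) was then given, timed to the inactive phase per the labels, and the other 6 groups received vehicle. Each treatment was sampled at 4, 8, 12, 16, 20 and 24 h on the label clock, whose zero is not stated, with 3 libraries per group. No group with intact adrenals is analysed here, so both treatments share the surgery, and the labels give neither age nor sex nor the dose.

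Nr3c1, Nr3c2, Esr1 and Pgr encode nuclear receptors, proteins that bind a steroid in the cell and then act on genes as transcription factors. The mineralocorticoid receptor binds corticosterone as tightly as it binds aldosterone, and cells that should respond to aldosterone therefore express HSD11B2, which inactivates corticosterone. HSD11B1 works in the opposite direction and regenerates corticosterone from its inactive 11-keto form. Before it binds hormone the glucocorticoid receptor is held by HSP90 together with cochaperones. FKBP4 (FKBP52) favours hormone binding and transport to the nucleus, while the related FKBP5 (FKBP51) lowers hormone affinity and is itself induced by glucocorticoids. Progesterone receptor transcription is a classical target of the estrogen receptor in reproductive tissue.

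CORT libraries held 11016413 counts and vehicle libraries 10682675 on average, with averages of 9591304 to 12311337 when split further by replicate number. Urothelial markers (summed normalized value 36150 to 88600 per library) and smooth muscle markers (129800 to 378200) were high in all 36 libraries, and 5 of 5 markers of male reproductive glands reached at most 2.44. In the authors' tables of selected genes with 18 libraries each, 8 replicate 2 columns (4, 8, 16 and 20 h in each treatment) match a different library of the full tables, which for 4 of them is one of the other treatment. The names of the full tables were used, and each call among the 7 genes is also given without these 8 libraries and with the other names. Endothelial markers were lower in CORT over the day, with 5 of 5 called, against 4.11% of all features. Vwf was at -0.59 ± 0.08 log2 (SE, 18 libraries per treatment, limma adjusted p = 0.000225). Of 6 fibroblast markers 2 were called, the collagens Col1a1 and Col1a2, both lower in CORT. Estimates of the 6 were negative for 4 and positive for 2, with a median of -0.12 log2. The endothelial count of 5 fell to 1 without the 8 libraries named in 2 ways and without replicate 3. It fell to 0 with the other names, without replicate 2 and in replicate 3 only. In whole tissue, fewer cells of a type and less RNA per cell cannot be told apart.

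Per kilobase of annotated exon, the chaperone Fkbp4 stood highest, followed by Nr3c1, Hsd11b1, Nr3c2, Esr1, Pgr and, near the limit of detection, Hsd11b2. Mean normalized values per kilobase were 627 in CORT and 605 in vehicle for Fkbp4, and 256 in CORT and 275 in vehicle for Nr3c1. They were 65.5 in CORT and 63.5 in vehicle for Hsd11b1, and 61.0 in CORT and 54.6 in vehicle for Nr3c2. The glucocorticoid receptor thus stood 4.12 times above Hsd11b1, the next gene in the order, and was higher in all 36 libraries. Hsd11b1 and Nr3c2 did not differ beyond their spread: Hsd11b1 was the higher in 24 of 36 libraries. Esr1 averaged 27.7 per kilobase in CORT and 28.2 in vehicle, above Pgr in 35 of 36 libraries, with overlapping ranges. Pgr averaged 9.31 in CORT and 9.15 in vehicle, and Hsd11b2 averaged 1.38 in CORT and 1.73 in vehicle. These levels use the summed exon length of all annotated transcripts (GENCODE M21 on mm10), which is 1.84 kb for Hsd11b2 and 13.66 kb for Esr1.

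**Figure D1:**
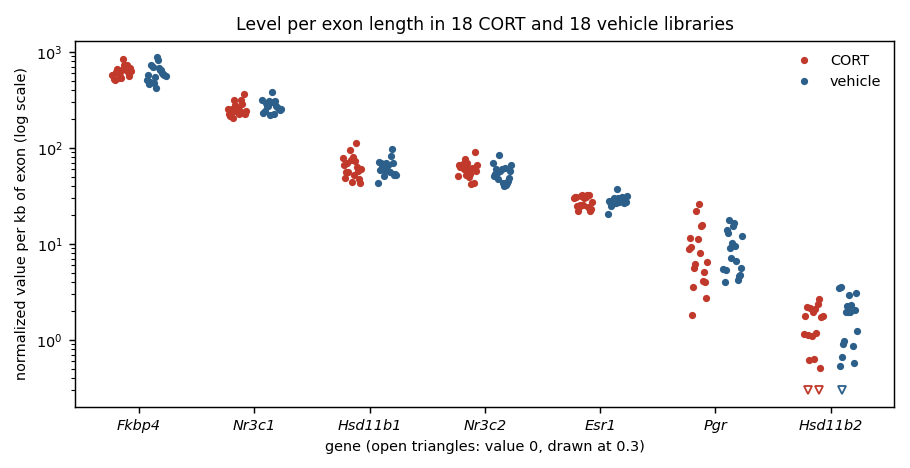
Normalized value per kilobase of exon (log scale) of the 7 genes in order of their mean, with 1 point per library, 18 CORT libraries (red, left) beside 18 vehicle libraries (blue, right) for each gene. Fkbp4 averages 627 in CORT and 605 in vehicle at the top of the order, and Hsd11b2 averages 1.38 in CORT and 1.73 in vehicle at the bottom, with libraries at 0 drawn as open triangles.

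Averaged over the 6 times, none of the 7 genes passed the test between treatments (0 of 7; limma 12-group model, Benjamini-Hochberg adjusted p under 0.05, and 0 of 7 at an unadjusted p under 0.05). Over all features, 4.11% were called in that comparison. Single times called 1 member in all, Pgr at 8 h, where 0.795% of all features were called. No member was called at 4 h (0.162% of all features called), 12 h (0.0448%), 16 h (0.0112%), 20 h (0%, with 1073 features at an unadjusted p under 0.05) or 24 h (0.0336%). At an unadjusted p under 0.05 these 5 times held 1 member value, that of Hsd11b2 at 16 h. No member was called for a treatment difference that changes across the times (0.134% of all features called), of which Pgr alone had an unadjusted p under 0.05. Over the 6 times, Fkbp4 changed in vehicle (1 of 7; 1.18% of all features called) and no member was called in CORT (0 of 7, with 3 at an unadjusted p under 0.05; 0.118% of all features called). No member had a called 24 h rhythm in CORT (0% of all features called, with 1055 at an unadjusted p under 0.05) or in vehicle (0.429%), or a called rhythm difference between treatments (0.106%).

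**Figure D2:**
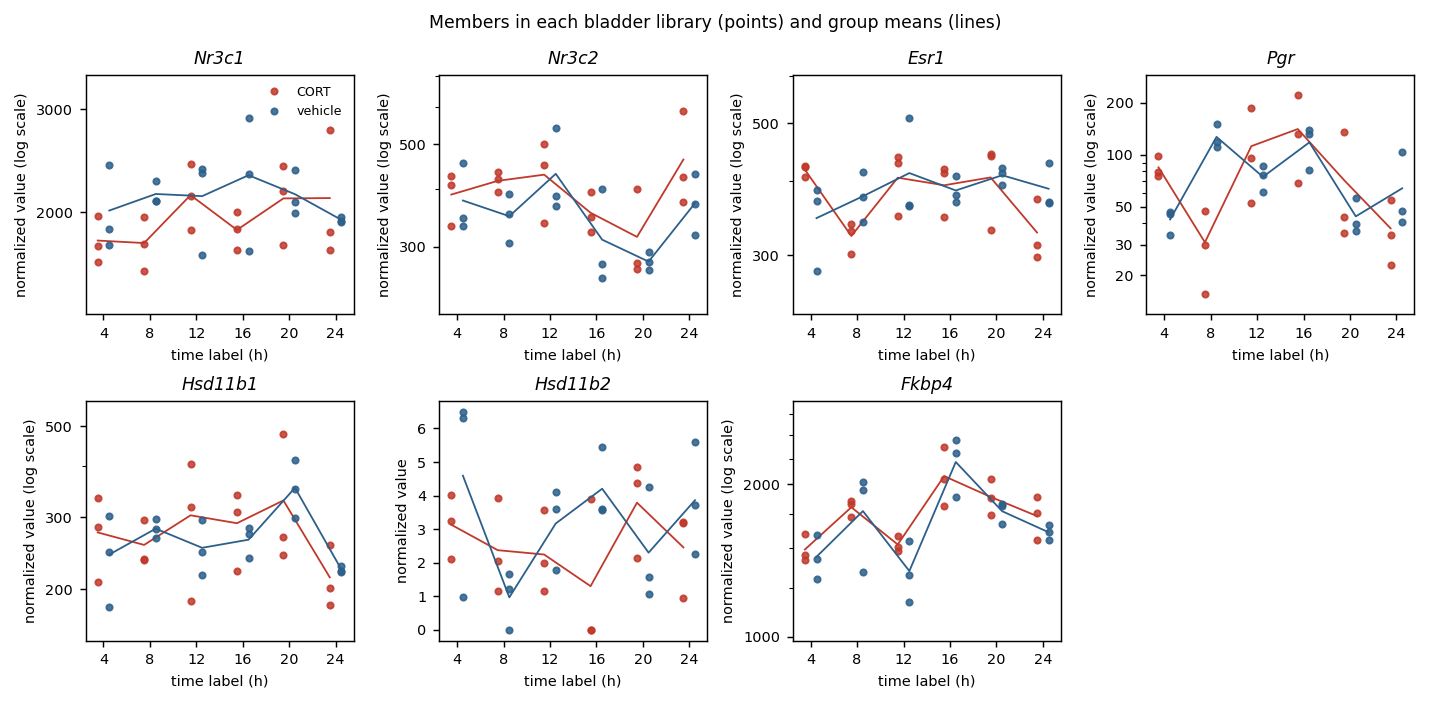
Normalized value of each gene in each library against the time label in hours, CORT in red to the left of vehicle in blue at each time, with lines through the group means of 3 libraries (log scale except for Hsd11b2). At 8 h the 3 CORT libraries of Pgr lie between 15.6 and 47.4 and the 3 vehicle libraries between 111 and 152, the widest gap between treatments in the figure at that time.

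The glucocorticoid receptor gene Nr3c1 (ENSMUSG00000024431.15, chromosome 18, 39410545 to 39519421, minus strand, mm10) ranged 1.74-fold from lowest to highest library in CORT and 1.72-fold in vehicle. Normalized values were 1587 to 2766 with a median of 1869 in 18 CORT libraries, and 1690.5 to 2902 with a median of 2087 in 18 vehicle libraries. The day mean difference was -0.11 ± 0.07 (log2 CORT minus vehicle, SE; 95% interval -0.26 to 0.04; limma, adjusted p = 0.415). At 8 h CORT libraries held 1762, 1966 and 1587, all below the vehicle values of 2263, 2090 and 2094, with a difference of -0.28 ± 0.18 that was not called (adjusted p = 0.462). Libraries of the groups lay apart at 8 h for 23.2% of all features tested, and for 4 of the 7 genes (Nr3c1, Nr3c2, Esr1 and Pgr). Time means of Nr3c1 spanned 0.27 log2 in CORT and 0.22 in vehicle, neither called (limma, adjusted p = 1.00 in CORT and 0.944 in vehicle).

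Nr3c1 varied between replicates of a group (SD 0.22 log2) more than 77.8% of 1027 features of like level. Over the 36 libraries the transcripts most like it among features with a mean value of at least 50 were Dgkd, a diacylglycerol kinase (Pearson r = 0.85), the ephrin receptor Epha4 (0.84) and Ptchd1 (0.83). With the summed urothelial markers Nr3c1 had r = -0.68 (Spearman -0.73) over 36 libraries, and r was -0.71 in the 12 libraries of replicate 3 alone. With the smooth muscle markers r was 0.56 over 36 libraries, but 0.12 in the 12 libraries of replicate 3. Libraries with more urothelial transcripts thus tended to hold less Nr3c1. These correlations describe libraries that share their times and treatments, and the part of tissue makeup in any treatment value of Nr3c1 was not tested.

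The mineralocorticoid receptor gene Nr3c2 (ENSMUSG00000031618.13, chromosome 8, 76899442 to 77245012, plus strand) came nearest to a treatment difference over the day. It had values of 269 to 589 with a median of 397 in CORT, and of 257 to 541 with a median of 349 in vehicle. The groups overlapped widely, and the day mean difference was 0.16 ± 0.08 (95% interval -0.004 to 0.33; limma, unadjusted p = 0.0548, adjusted p = 0.259). The estimate was positive in 5 of 6 times, the exception being 12 h at -0.003. At 8 h the CORT libraries held 421, 435 and 394, all above the vehicle values of 390, 353 and 305 (0.26 ± 0.20; adjusted p = 0.558). In both treatments the lowest time means lay at 16 to 20 h: at 20 h CORT libraries held 269, 400 and 278 and vehicle libraries 267, 278 and 292. The time spans of 0.55 log2 in CORT and 0.61 in vehicle were not called (limma, adjusted p = 0.852 in CORT and 0.370 in vehicle). The transcripts most like Nr3c2 were the ubiquitin protease Usp3 (r = 0.85), the mitochondrial anchoring protein gene Akap1 (0.84) and Tfdp2, a partner of E2F factors (0.81). A gene on the opposite strand, Gm10649, lies over exons of Nr3c2, and the labels do not say whether counting used the strand.

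Esr1 (ENSMUSG00000019768.16, chromosome 10, 4611593 to 5005614, plus strand), which encodes estrogen receptor alpha, was the steadiest of the 4 receptors, with a replicate SD of 0.17 log2. Values were 298 to 444 in CORT (median 389) and 283 to 509 in vehicle (median 377), and the day mean difference was -0.03 ± 0.06 (95% interval -0.15 to 0.08; limma, adjusted p = 0.80). At 4 h the CORT libraries held 406, 424 and 422, above vehicle with 283, 386 and 370. At 8 h the order was the other way round, with 339, 301 and 329 in CORT and 340, 376 and 413 in vehicle. Neither was called (0.28 ± 0.14 at 4 h with adjusted p = 0.724, and -0.22 ± 0.14 at 8 h with adjusted p = 0.464). At 4 h, 13.4% of all features tested had groups that lay apart, and 2 of the 7 genes did (Esr1 and Pgr). The transcripts most like Esr1 were Arhgdib (r = 0.74), H6pd (0.71), whose product makes the NADPH that HSD11B1 uses, and Sel1l (0.68), a component of protein quality control in the endoplasmic reticulum. Esr1 also had r = 0.53 with the summed fibroblast markers over 36 libraries, and 0.40 in replicate 3 alone. The collagen Col1a1 weighs heavily in that sum, with means of 46908 in CORT and 70380 in vehicle.

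Pgr (ENSMUSG00000031870.16, chromosome 9, 8899833 to 8968611, plus strand) was the member that differed between treatments at a single time. At 8 h it had normalized values of 15.6, 30.1 and 47.4 in CORT libraries, against 118, 111 and 152 in vehicle libraries. These rest on 15, 25 and 38 reads in CORT and on 97, 92 and 195 reads in vehicle, numbered from the tie order of the deposited values. Every CORT library lay below every vehicle library. The difference was -2.12 ± 0.49 (log2 CORT minus vehicle, SE; 95% interval -3.12 to -1.11), which is 4.33-fold higher in vehicle (limma, adjusted p = 0.0383). The call was lost without any single 8 h library other than CORT replicate 3 (-2.21 to -1.71, adjusted p = 0.0588 to 0.224), without the 8 libraries named in 2 ways (-2.25, adjusted p = 0.386) and with their other names (-1.49, adjusted p = 0.998), while the sign stayed negative. Leaving out all libraries of 1 replicate number also lost the call (limma, adjusted p = 0.159 without replicate 1, 0.374 without replicate 2 and 0.202 without replicate 3).

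The direction at 4 h was the reverse, without a call. Pgr had values of 75.4, 98.2 and 79.8 in CORT, against 46.6, 34.4 and 45.4 in vehicle, so the groups lay apart (0.99 ± 0.49; limma, adjusted p = 0.729). From 12 to 24 h the groups overlapped. CORT libraries held 52.5, 188 and 96.1 at 12 h and 222, 68.7 and 132 at 16 h, against 76.4, 60.5 and 86.4 at 12 h and 132, 140 and 82.0 at 16 h in vehicle. They held 135, 35.2 and 43.7 at 20 h and 34.4, 23.1 and 54.8 at 24 h, against 56.1, 36.2 and 39.5 at 20 h and 40.8, 47.3 and 104 at 24 h in vehicle. The highest time mean was that at 16 h in CORT and that at 8 h in vehicle, and the lowest that at 8 h in CORT and that at 4 h in vehicle. The treatment difference across times had F = 5.25 (limma, unadjusted p = 0.00188, adjusted p = 0.350), and averaged over the day the difference was -0.14 ± 0.20 (adjusted p = 0.745). No member was called for the difference at 8 h less that at 4 h, a contrast chosen after seeing the data (0 of 7, against 0.028% of all features; for Pgr -3.11 ± 0.69, adjusted p = 0.138).

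Pgr was also the most variable of the 6 members above the limit of detection. From lowest to highest library it ranged 14.2-fold in CORT and 4.42-fold in vehicle, against 1.74-fold in CORT and 1.72-fold in vehicle for Nr3c1. Its replicate SD of 0.62 log2 exceeded that of 97.7% of 1301 features of like level, whose median was 0.27. The time means spanned 2.12 log2 in CORT (adjusted p = 0.190) and 1.57 in vehicle (adjusted p = 0.181), neither called by limma. A fitted 24 h rhythm peaked at 15.3 ± 1.9 h in CORT (amplitude 0.62 ± 0.31, adjusted p = 0.921) and at 11.8 ± 1.2 h in vehicle (amplitude 0.60 ± 0.19, adjusted p = 0.296; SE, 18 libraries each). Pgr is in the authors' deposited table of selected vehicle genes over 12 libraries. The other 3 selected tables hold none of the 7 genes.

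**Figure D3:**
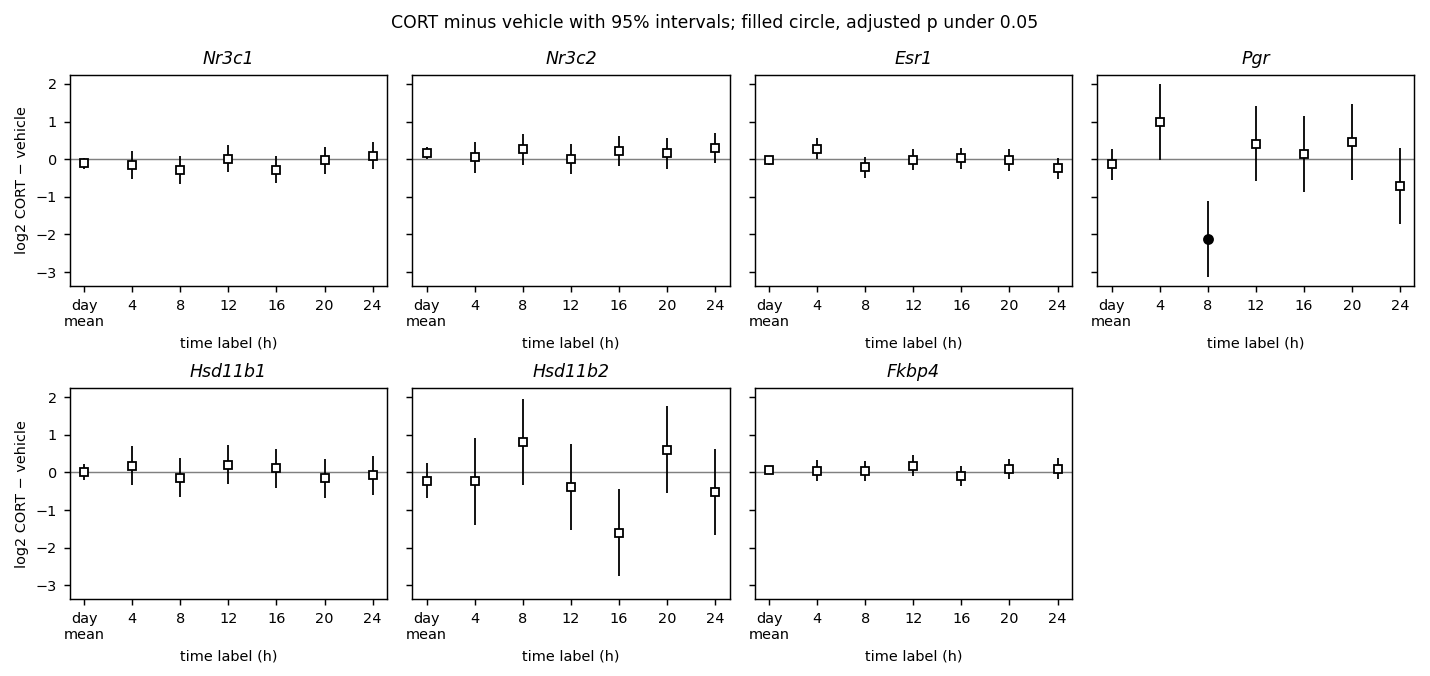
Log2 CORT minus vehicle for each gene, as the day mean (18 libraries per treatment) and at each time label in hours (3 per treatment), with 95% intervals from limma. The filled circle marks the only value with an adjusted p under 0.05, Pgr at 8 h with -2.12, and the intervals of Pgr and Hsd11b2 are the widest.

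Markers of other cell types moved with treatment at 8 h too. Summed over 5 of 5 endothelial markers, CORT libraries held 1842, 2260 and 2656, against 4000, 4163 and 4174 in vehicle. Over 6 of 6 fibroblast markers they held 86200, 97710 and 118400, against 145200, 208600 and 212200 in vehicle. Col1a1 weighs heavily in this sum, with means of 39417 in CORT and 93265 in vehicle at 8 h. The estimates of the 6 fibroblast markers were all negative, with a median of -0.29 log2, and only Col1a1 was called. Smooth muscle sums overlapped (262500 to 285900 in CORT and 240600 to 339800 in vehicle), and urothelial sums lay higher in CORT (58270 to 66980) than in vehicle (42540 to 56600). At 8 h Pecam1, Vwf, Col1a1 and the macrophage gene Adgre1 were called lower in CORT, and no smooth muscle or urothelial marker was. Over all features, 0.795% were called at that time. Sums of the 6 macrophage markers overlapped (4241 to 4788 in CORT and 4320 to 6336 in vehicle). Vwf was at -1.13 ± 0.19 (limma, adjusted p = 0.00637) and Col1a1 at -1.26 ± 0.30 (adjusted p = 0.0464), against -2.12 ± 0.49 for Pgr. The endothelial count of 2 called at 8 h fell to 0 without CORT 8 h replicate 1, without vehicle 8 h replicate 3, without the 8 libraries named in 2 ways and with the other names. It rose to 5 without CORT 12 h replicate 3 or CORT 24 h replicate 1 or 2, and with a replicate block, a pseudocount of 5, a minimum mean of 10 or an intensity trend. It was 4 without vehicle 12 h replicate 3, 16 h replicate 3 or 24 h replicate 1, and 1 without CORT 8 h replicate 2, without vehicle 8 h replicate 1 or 2, and with the deposited values not rescaled. The part of these cell types in the Pgr value was not tested.

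Over the 36 libraries Pgr was most like Tiparp (r = 0.78), Klf4 (0.78) and Ahrr (0.75) among features with a mean value of at least 50. TIPARP is an ADP-ribosyltransferase and AHRR a repressor, both induced by the aryl hydrocarbon receptor and both feeding back on it, and KLF4 is a zinc finger transcription factor. The next in the order were Cyp1b1 (0.74), the laminin gene Lama1 (0.73), Cyp1a1 (0.71), Jdp2 (0.70) and Prss35 (0.69), named after their values were seen; Cyp1b1 and Cyp1a1 encode cytochromes P450 and are standard targets of the same receptor. Within treatments r was 0.80 in CORT and 0.79 in vehicle for Tiparp, and 0.86 in CORT and 0.59 in vehicle for Ahrr. In replicate 3 alone (12 libraries) it was 0.77 for Tiparp, 0.78 for Klf4 and 0.64 for Ahrr. Of the transcripts named, Prss35 had the lowest r in vehicle (0.28) and in replicate 3 (0.20). All these libraries were used for the choice, so such parts are no separate check. For deviations from the group means r was 0.71 for Tiparp, 0.63 for Klf4 and 0.66 for Ahrr. Libraries of the same group that were high in Pgr thus tended to be high in these 3 transcripts.

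The 3 transcripts were chosen for following Pgr over libraries that include those at 8 h, so their values there are a description, and none passed the test between treatments at 8 h. Ahrr held 62.6, 85.9 and 95.8 in CORT, against 174, 268 and 245 in vehicle (-1.48 ± 0.39; limma, adjusted p = 0.0592). Tiparp held 451, 508 and 794 in CORT, against 747, 907 and 946 in vehicle (-0.60 ± 0.35; adjusted p = 0.411). Klf4 held 813, 974 and 1329 in CORT, against 1324, 1568 and 1750 in vehicle (-0.60 ± 0.28; adjusted p = 0.308). The Ahrr groups lay apart, whereas Tiparp and Klf4 overlapped by 1 library each. In all 3 transcripts the CORT library with the most Pgr, replicate 3, was also the highest CORT library, and replicate 1 the lowest.

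**Figure D4:**
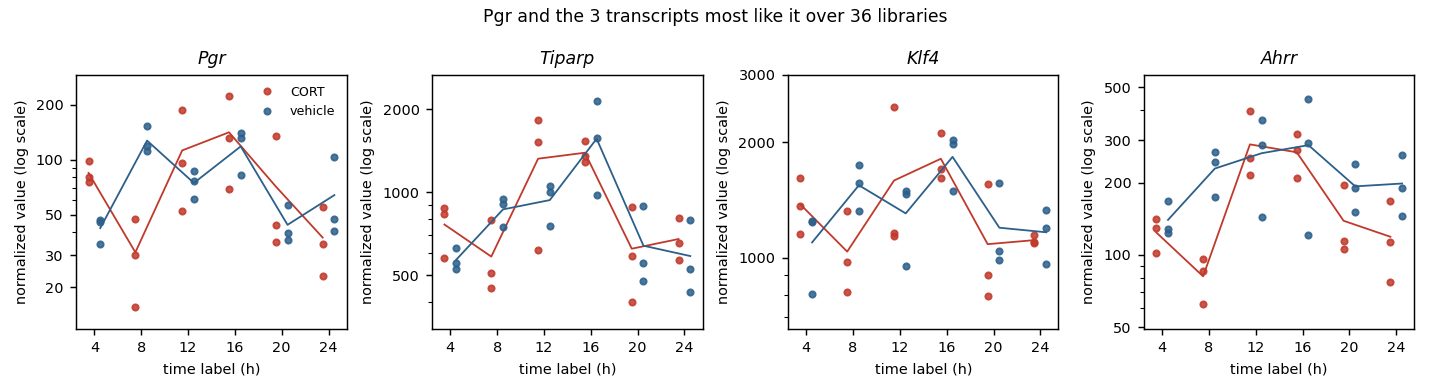
Normalized value (log scale) of Pgr, Tiparp, Klf4 and Ahrr against the time label in hours, CORT in red to the left of vehicle in blue, with 1 point per library and lines through group means. Ahrr lies between 62.6 and 95.8 in CORT and between 174 and 268 in vehicle at 8 h. The 3 transcripts were chosen for following Pgr over these same libraries, so a shared shape is part of the choice.

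The 250 bases before the start of Pgr and of Tiparp and Ahrr, the 2 among its 3 closest transcripts that the aryl hydrocarbon receptor is known to induce, are shown to set their letters side by side, with any copy of the receptor's core motif (GCGTG, or CACGC on the other strand) in capitals, 5′ to 3′ on the gene's strand. They are RefSeq promoters on GRCm38.p6, at chr9:8899583-8899832 on the plus strand for Pgr, chr3:65528197-65528446 on the plus strand for Tiparp and chr13:74292332-74292581 on the minus strand for Ahrr.
Pgr: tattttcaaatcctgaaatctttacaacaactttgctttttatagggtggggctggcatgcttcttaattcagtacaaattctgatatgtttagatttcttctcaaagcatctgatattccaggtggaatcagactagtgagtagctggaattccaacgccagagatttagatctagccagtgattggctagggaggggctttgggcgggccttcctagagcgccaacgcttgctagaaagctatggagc
Tiparp: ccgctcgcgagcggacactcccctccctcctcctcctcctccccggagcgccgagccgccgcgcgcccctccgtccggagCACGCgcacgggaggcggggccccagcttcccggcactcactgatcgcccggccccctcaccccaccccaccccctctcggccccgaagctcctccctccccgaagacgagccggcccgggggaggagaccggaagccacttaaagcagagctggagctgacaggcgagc
Ahrr: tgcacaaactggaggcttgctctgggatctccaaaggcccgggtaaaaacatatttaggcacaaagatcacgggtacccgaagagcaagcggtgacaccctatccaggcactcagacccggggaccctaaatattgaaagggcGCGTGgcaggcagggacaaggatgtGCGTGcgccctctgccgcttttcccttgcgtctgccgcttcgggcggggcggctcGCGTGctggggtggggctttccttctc

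The window of 300 bases around the start held 3 copies in Ahrr, at 107, 82 and 27 bases before it, 1 in Tiparp at 170 bases before it, and none in Pgr or Klf4. Of the 32851 promoters of the same length in the table, 32.4% held at least 1 copy and 11.1% at least 2. A match is a description of the letters, and its absence from this window says nothing of binding elsewhere.

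Of the enzymes, Hsd11b1 (ENSMUSG00000016194.14, chromosome 1, 193221634 to 193264075, minus strand), which regenerates corticosterone, was expressed at a moderate level in every library. It had values of 183 to 478 with a median of 263 in CORT, and of 181 to 413 with a median of 270 in vehicle. The groups overlapped at all 6 times, and the day mean difference was 0.02 ± 0.10 (95% interval -0.19 to 0.23; limma, adjusted p = 0.951). Its sign turned without replicate 1 (-0.14) and without any of 5 single libraries, which are CORT replicate 1 at 4 h (-0.004), 12 h (-0.02) and 20 h (-0.03), CORT 24 h replicate 3 (-0.002) and vehicle 4 h replicate 1 (-0.01). The highest time mean in vehicle was that at 20 h, where CORT libraries held 478, 269 and 242 and vehicle libraries 351, 413 and 298. Time spans of 0.57 log2 in CORT and 0.65 in vehicle were not called (limma, adjusted p = 0.996 in CORT and 0.567 in vehicle).

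The replicate SD of Hsd11b1 was 0.31 log2, above that of 91.2% of 2468 features of like level. The transcripts most like it were AW112010 (r = 0.70), the C-type lectin receptor gene Cd302 (0.68) and Ly6a (0.67), which encodes the surface antigen SCA-1. H6pd, which supplies the cofactor of HSD11B1, had values averaging 2513 in CORT and 2699 in vehicle (-0.10 ± 0.05; limma, adjusted p = 0.275). Exons of Hsd11b1 lie under the opposite strand genes 4930570N18Rik and Lamb3, a laminin gene. With counting of unstated strandedness, their reads and those of Hsd11b1 may not be separable.

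Hsd11b2 (ENSMUSG00000031891.6, chromosome 8, 105518755 to 105523988, plus strand), which inactivates corticosterone, was near the limit of detection in whole bladder. It had 0 to 5 reads per library in CORT (45 reads over 18 libraries, 2 of them at 0) and 0 to 7 reads in vehicle (57 reads over 18 libraries, 1 at 0). Normalized values were 0 to 4.86 in CORT and 0 to 6.50 in vehicle. The day mean difference was -0.22 ± 0.23 (95% interval -0.69 to 0.25; limma, adjusted p = 0.634). At 16 h CORT libraries held 3.89, 0 and 0, against 3.56, 5.44 and 3.61 in vehicle (-1.60 ± 0.56; unadjusted p = 0.00842, adjusted p = 0.999), a value that rests on a few reads. A difference within the interval of the day mean was not detectable at this depth, and the correlations of Hsd11b2 with other transcripts (r of at most 0.47) are no finding.

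Of 15 other genes of corticosteroid synthesis, metabolism and transport, 8 were kept for testing and 1 was called over the day, against 4.11% of all features. This was Abcb1a, which encodes the efflux pump P-glycoprotein, with values of 140 to 369 in CORT (median 237) and 156 to 410 in vehicle (median 296). It was lower in CORT (-0.37 ± 0.09 log2; limma, adjusted p = 0.0165), and the call was lost in 5 of 50 alternatives, among them the one without the 8 libraries named in 2 ways (adjusted p = 0.151) and the one with the other names (0.475). Abcb1a is also expressed by endothelium, and 5 of 5 endothelial markers were lower in CORT; the part of endothelium in it was not tested. The adrenal genes Cyp11b2, Cyp21a1 and Hsd3b1 were at 0 in the mean of both treatments and Cyp11b1 averaged 0.363 in CORT and 0.168 in vehicle; these were named after their values were seen.

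Fkbp4 (ENSMUSG00000030357.10, chromosome 6, 128429735 to 128438677, minus strand), the HSP90 cochaperone of steroid receptors, was the member that changed over the times, and the change was called in vehicle. At 4 h CORT libraries held 1596, 1447 and 1419, against 1422, 1592 and 1301 in vehicle. At 8 h they held 1728, 1851 and 1829, against 1342, 2023 and 1950 in vehicle. At 12 h they held 1480, 1580 and 1505, against 1324, 1548 and 1172 in vehicle. The treatments overlapped at each of these times.

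At 16 h CORT libraries held 1813, 2368 and 2051, against 2452, 2303 and 1890 in vehicle. At 20 h they held 1882, 2047 and 1739, against 1829, 1810 and 1672 in vehicle, and at 24 h 1553, 1888 and 1755, against 1660, 1612 and 1554 in vehicle. The 3 vehicle libraries at 16 h lay above those at 4, 12, 20 and 24 h, and the lowest vehicle library was at 12 h. The highest mean was that at 16 h in both treatments, 2077 ± 278 in CORT and 2215 ± 291 in vehicle, and the lowest was 1487 ± 94.9 at 4 h in CORT and 1348 ± 189 at 12 h in vehicle (SD, n = 3 each).

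Time means spanned 0.48 log2, or 1.39-fold, in CORT (limma, adjusted p = 0.455) and 0.72 log2, or 1.64-fold, in vehicle (adjusted p = 0.0355). The time courses of the treatments were not shown to differ (treatment difference across times, F = 0.48; limma, adjusted p = 1.00). A fitted 24 h rhythm had an amplitude of 0.16 ± 0.06 in CORT (adjusted p = 0.835) and 0.19 ± 0.09 in vehicle (adjusted p = 0.553), with neither called. Over the day, values were 1419 to 2368 in CORT and 1172.5 to 2452 in vehicle, with a mean difference of 0.06 ± 0.05 (95% interval -0.05 to 0.17; limma, adjusted p = 0.534).

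The vehicle call of Fkbp4 was close to the threshold. It was lost without any of 8 single vehicle libraries (span 0.62 to 0.72 log2, adjusted p = 0.0512 to 0.145), which are replicates 1 and 3 at 4 h and at 12 h, replicates 1 and 2 at 16 h, and replicates 2 and 3 at 20 h. It was also lost without the 8 libraries named in 2 ways (0.68, adjusted p = 0.439) and with their other names (0.54, adjusted p = 1.00). Leaving out all libraries of 1 replicate number lost the call too (limma, adjusted p = 0.116 without replicate 1, 0.587 without replicate 2 and 0.403 without replicate 3).

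The transcripts most like Fkbp4 over the 36 libraries were Cacybp (r = 0.86), Luc7l (0.83) and Tubb4b (0.83). CACYBP binds S100 proteins and the ubiquitin ligase SIAH1, LUC7L is a splicing factor and TUBB4B a beta tubulin. In replicate 3 alone (12 libraries) r was 0.89 for Cacybp, 0.86 for Luc7l and 0.85 for Tubb4b. At 16 h vehicle libraries of Tubb4b held 3270, 3233 and 2341, against 1393, 1864 and 1538 at 12 h. Luc7l and Tubb4b were called over time in vehicle (limma, adjusted p = 0.0488 for Luc7l and 0.0219 for Tubb4b), and Cacybp was not (adjusted p = 0.0971). All 3 were chosen for following Fkbp4 over these same libraries. A change over time like that of Fkbp4 is thus part of the choice, and r in replicate 3 is no separate check. The call of Luc7l was lost in 35 of 49 alternatives, 27 of them the omission of 1 library (adjusted p = 0.0502 to 0.159). That of Tubb4b was lost in 8 of 49, among them without vehicle 16 h replicate 1 (adjusted p = 0.0922) or replicate 2 (0.0854). Both were lost without the 8 libraries named in 2 ways and with the other names (Luc7l and Tubb4b each at adjusted p = 1.00 with the other names). Further down the order stood the mitochondrial chaperonin Hspd1 and the chaperonin subunit Cct3, named after their values were seen.

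**Figure D5:**
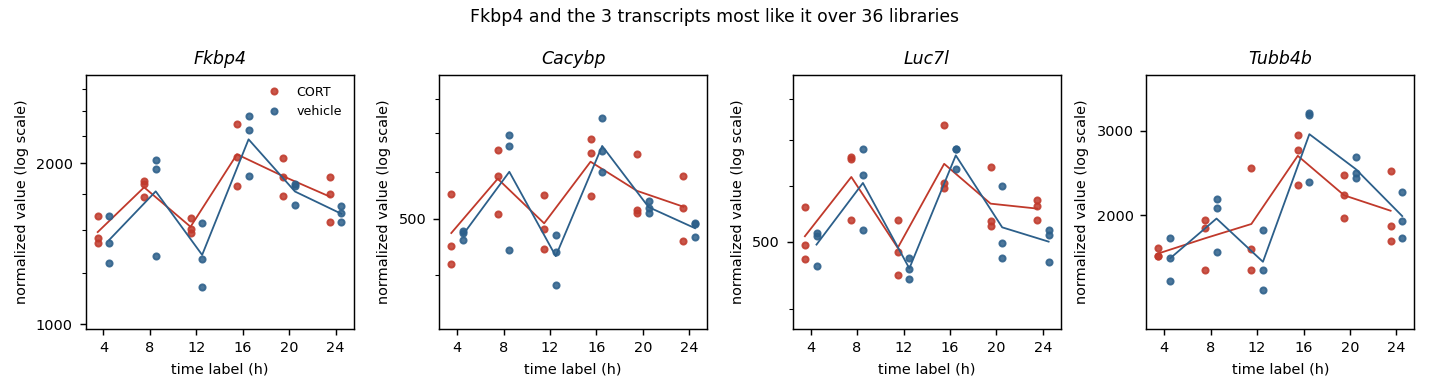
Normalized value (log scale) of Fkbp4, Cacybp, Luc7l and Tubb4b against the time label in hours, CORT in red to the left of vehicle in blue, with 1 point per library and lines through group means. In vehicle the Fkbp4 means rise to 2215 at 16 h, against 1348 at 12 h, and the other 3 transcripts are also high at 16 h. These 3 were chosen for following Fkbp4 over the same libraries, so a shared shape is part of the choice.

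Of 17 listed chaperones and cochaperones, 2 were called over time in vehicle, against 1.18% of all features, the constitutive heat shock protein gene Hspa8 (span 0.76 log2; limma, adjusted p = 0.0219) and the cochaperone gene Dnajb1 (0.91 log2; adjusted p = 0.0219), both named after their values were seen. Dnajb1 held 846, 851 and 891 at 16 h in vehicle, against 397, 582 and 460 at 12 h. Both calls were lost without vehicle 16 h replicate 1 (adjusted p = 0.0680 for Hspa8 and 0.0582 for Dnajb1) and without vehicle 16 h replicate 2 (0.0530 for Hspa8 and 0.0574 for Dnajb1), and that of Dnajb1 also without vehicle 8 h replicate 3 (0.0528). Without the 8 libraries named in 2 ways the adjusted p was 0.476 for Hspa8 and 0.466 for Dnajb1, and with the other names 1.00 for both. Since these genes are classical targets of heat shock factors, the 250 bases before the start of Fkbp4 (RefSeq, GRCm38.p6, chr6:128438657-128438906, minus strand) are shown with the paired heat shock motif (GAANNTTC or TTCNNGAA, each of which reads the same on both strands) in capitals.
Fkbp4: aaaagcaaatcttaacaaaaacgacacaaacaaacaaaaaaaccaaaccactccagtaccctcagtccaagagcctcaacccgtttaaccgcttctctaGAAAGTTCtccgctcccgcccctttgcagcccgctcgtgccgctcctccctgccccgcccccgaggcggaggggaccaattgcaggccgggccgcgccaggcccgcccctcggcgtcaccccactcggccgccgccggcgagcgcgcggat

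Fkbp4 held 1 copy, 151 bases before the start. Of the 32851 promoters, 15.1% held a copy in either arrangement. Cacybp and Tubb4b held none in the same window, and Luc7l had no promoter entry. Hspd1 held copies at 144, 139 and 134 bases before the start in 1 promoter entry and none in the other. The member Nr3c2 held 1 copy. Promoters of Hspa8 and Dnajb1 were not searched. A match is a description of the letters, and a part of heat shock factors in these time courses was not tested.

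Over the day, 1 of the 17 chaperones was called between treatments, against 4.11% of all features, a share near which a count of 1 is no result about the list. It was Dnaja2, an HSP40 cochaperone, with values of 1661 to 2138 in CORT (median 1918) and 1603 to 2180 in vehicle (median 1732). It was higher in CORT by 0.11 ± 0.03 log2, or 1.08-fold (limma, adjusted p = 0.0313), and the call was lost in 15 of 50 alternatives. Single libraries whose omission lost it were CORT 8 h replicate 1, 12 h replicate 3 and 24 h replicate 2, and vehicle replicate 3 at 4, 8, 12 and 20 h, replicate 2 at 16 h and replicate 1 at 24 h (adjusted p = 0.0503 to 0.0588). The median difference of the 17 genes was 0.02 log2, against 0.02 over all features tested. Fkbp5, the cochaperone that opposes Fkbp4, was called at 4 h. It held 1390, 2778 and 3138 in CORT, against 493, 474 and 540 in vehicle (2.19 ± 0.33, or 4.57-fold; adjusted p = 0.0016). At 4 h Fkbp4 itself held 1596, 1447 and 1419 in CORT, against 1422, 1592 and 1301 in vehicle (0.05 ± 0.13; adjusted p = 0.974).

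Of 14 listed targets of the glucocorticoid receptor, 6 were called at 4 h, all higher in CORT, against 0.162% of all features: Fkbp5, Tsc22d3, Per1, Sgk1, Errfi1 and Pdk4, which were named after their values were seen. Tsc22d3, which encodes the anti-inflammatory protein GILZ, held 1854, 4707 and 3747 in CORT, against 659, 684 and 593 in vehicle (2.31 ± 0.28; limma, adjusted p = 0.000117). The median difference of the 14 targets was 1.09 log2 at 4 h and 0.19 over the day, when none was called, against 0.0009 at 4 h and 0.02 over the day for all features. Without the 8 libraries named in 2 ways, without replicate 2 or 3, and with the other names, 0 of the 14 were called at 4 h; Fkbp5 was then at 2.02 without those libraries and at 1.34 with the other names. At 4 h the receptor itself held 1973, 1748 and 1647 in CORT, against 2413, 1757 and 1872 in vehicle (-0.16 ± 0.18; adjusted p = 0.939).

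Genes of sodium transport that respond to the mineralocorticoid receptor were not called over the day (0 of 7, against 4.11% of all features). At that share a count of 0 of 7 is no result about the list. Their median difference was 0.18 log2, against 0.02 over all features tested. Sgk1, a kinase that stabilises the epithelial sodium channel and is shared with the glucocorticoid list, was called at 4 h (1.49 ± 0.29, limma adjusted p = 0.0264). At 4 h 0.162% of all features were called. Of 10 listed targets of the estrogen and progesterone receptors, 8 were tested and 1 was called over the day, against 4.11% of all features, the growth factor gene Igf1. It held 494 to 1211 in CORT (median 737) and 567 to 1651 in vehicle (median 958), lower in CORT (-0.45 ± 0.12 log2; limma, adjusted p = 0.0311). The call was lost in 18 of 50 alternatives. Single libraries whose omission lost it were CORT replicate 2 at 4, 8, 20 and 24 h, 8 h replicate 1 and 12 h replicate 3, and vehicle replicate 3 at 4, 8, 12 and 20 h, 16 h replicate 2 and 24 h replicate 1 (adjusted p = 0.0502 to 0.0583). The median of the 8 was -0.27 log2. Greb1, a sensitive estrogen receptor target, held means of 9.27 in CORT and 15.9 in vehicle at 8 h (-0.64 ± 0.55; adjusted p = 0.613), named here beside Pgr after its values were seen.

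Of 6 other sex steroid and estrogen-related receptors, 1 was called over the day, against 4.11% of all features: Esr2, which encodes estrogen receptor beta, with 6.39 to 22.7 in CORT (median 13.3) and 2.86 to 20.8 in vehicle (median 9.50). It was higher in CORT by 0.49 ± 0.14 log2, or 1.41-fold (limma, adjusted p = 0.0383), at low values in every library, and the call was lost in 24 of 50 alternatives, 18 of them the omission of 1 library (adjusted p = 0.0520 to 0.0689). Without the 8 libraries named in 2 ways the adjusted p over the day was 0.264 for Esr2, 0.207 for Dnaja2 and 0.30 for Igf1, and with the other names it was 0.634 for Esr2, 0.544 for Dnaja2 and 0.541 for Igf1.

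The 7 genes did not vary as one group over the 36 libraries. The closest pair in the positive direction was Esr1 and Pgr (Pearson r = 0.47, and 0.29 for deviations from the group means), and the most opposed were Nr3c2 and Fkbp4 (-0.51, and -0.46 within groups) and Nr3c2 and Esr1 (-0.47, and -0.51 within groups). Nr3c1 and Nr3c2 were uncorrelated over all libraries (r = 0.0006, and 0.24 within groups). These are descriptions over libraries that share tissue makeup, times and treatments.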

How the data were processed

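Total RNA libraries (rRNA depletion and a directional kit, per the labels' protocols) were made from whole bladder. The protocol text speaks of blood and globin removal, while the labelled source is bladder. Signal values are read counts after quantile normalization by the authors, done within each table of 12 libraries, as the deposited values themselves show. The authors' selected tables hold log2 values of that deposited signal. Coordinates are on mm10, the build named in the submitters' processing notes. The aligner and counter are not named in the sources. Values were put on 1 scale over the 36 libraries, and low read numbers were read from the tie order of the deposited values.

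Features at the lowest value in over 50% of libraries were left out, and log2(value + 1) was fitted with limma 3.58.1 (R 4.3.3; a 12-group model with contrasts, F tests and a 24 h cosine) with Benjamini-Hochberg adjustment over all features. Fold changes are on that scale and understate those of low genes. Statistical code was tested on simulated data. Whether replicates are separate animals is not stated, and the p-values reflect only how far these libraries spread, which may be technical. The time of replicate 3 libraries comes from their titles. Replicate numbers were not taken as pairs, and the main model held no replicate term. Counts with a replicate block are given further below. Genes were named by a rule: the members, the 3 most alike transcripts per member among 11498 features with a mean of at least 50, and called genes of the lists for the day mean. The members and lists were chosen with earlier results of these data known. Promoters come from RefSeq (GRCm38.p6), with entries for 5 of the 7 members. Alternatives covered other pseudocounts, filters, scalings, single libraries and names. Some results on listed genes are not reported here.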

Additional observations from a re-analysis of the deposited data

Results flagged for a closer look

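The treatment differences of 2 members had opposite directions at 4 h and 8 h, with CORT libraries all above vehicle at 4 h and all below at 8 h. Of all features tested, 13.4% had groups that lay apart at 4 h and 23.2% at 8 h, in either direction. The share of features that lay apart at both times in opposite directions was not counted. The count of 2 members therefore has no matching share beside it and is no result about the members. The Esr1 groups nearly touched at 8 h, with 339 in the highest CORT library and 340 in the lowest vehicle library. For Pgr, the difference at 8 h less that at 4 h was -3.11 log2 (-3.106 ± 0.69, SE; limma, unadjusted p = 0.000128, adjusted p = 0.138), from 3 libraries per group. For Esr1 it was -0.50 log2 (-0.5011 ± 0.19; limma, unadjusted p = 0.0161, adjusted p = 0.737). Neither passed the adjusted test, which called 5 of 17867 features (0.028%), and this contrast was chosen after seeing the data.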

How the results depend on the processing

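The 2 calls among the 7 genes were both close to the threshold. For Pgr at 8 h the sign was negative in all 49 alternatives, with values of -2.479 to -1.707 when libraries were left out. The count of 1 member called at 8 h ranged from 0 to 1 when libraries were left out, and was 0 with the other names and on omitting the 8 libraries named in 2 ways. The count of 1 member called over time in vehicle likewise ranged from 0 to 1, and was 0 with the deposited values not rescaled, without the libraries named in 2 ways, with the other names and in the table of replicates 1 and 2 as deposited. The counts of members called in the other comparisons stayed at 0 in every alternative run.

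Counts of features moved more. Over the day, 734 were called, against 1240 with a replicate block, 2680 with the deposited values, 6 without the libraries named in 2 ways, 0 with the other names, 0 in replicate 3 only and 1 to 1282 when libraries were left out. At 8 h, 142 were called, against 262 with a replicate block, 220 with a pseudocount of 5, 267 with a minimum mean of 10, 224 with an intensity trend, 0 without the libraries named in 2 ways, 0 with the other names and 1 to 287 when libraries were left out. Over time in vehicle, 211 were called, against 406 with a replicate block, 116 with the deposited values, 10 without the libraries named in 2 ways, 0 with the other names, 0 in the table of replicates 1 and 2 and 1 to 462 when libraries were left out. Same-numbered libraries had correlated deviations of -0.101 to 0.258 (18 pairs, 5 over 0.1), so the numbers were not taken as pairs, and the block changed no call among the members.

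Signs that turned belonged to values that were not called. The day mean of Esr1 was 0.0389 with the deposited values and 0.00365 without the libraries named in 2 ways. That of Hsd11b1 was -0.132 in replicate 3 only and -0.142 to 0.108 when libraries were left out. Pgr ranged from -0.191 to 0.885 at 12 h, from -0.268 to 0.714 at 16 h and from -0.134 to 0.819 at 20 h when libraries were left out, and was -0.153 at 20 h with the other names. The cause of these shifts was not tested. The deposited scale moved the median of all features by 0.0527 log2 and median centring by -0.000381. Depth limits Hsd11b2 most, with at most 7 reads per library.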
